A study of Mus musculus with 11 samples.

Results

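The genes described here encode 10 cytosolic calcium-binding proteins that are widely used as neuronal markers or calcium sensors: Calb1, Calb2, Pvalb, Necab1, Necab2, Ncald, Vsnl1, Hpca, Hpcal1 and Hpcal4. They were found by matching the gene identifiers of the count tables to symbols of the mouse annotation, and all 10 were present among the 54752 genes counted. Their mRNA was measured in sorted neurons of 3 principal sensory thalamic nuclei at birth: the dorsolateral geniculate nucleus (dLG, the visual relay, n = 4), the ventral posteromedial nucleus (VPM, the relay for touch from the face, n = 4) and the ventral medial geniculate nucleus (MGv, the auditory relay, n = 3). Every library came from 4 pooled brains of ICR/CD-1 mice at postnatal day 0, and every mouse was Gbx2CreER-IRES-EGFP/+::R26lsl-tdTomato/+. Thus all groups shared 1 knock-in allele with a tamoxifen-inducible Cre driven by Gbx2, a transcription factor of early thalamic neurons, and 1 Cre-dependent tdTomato reporter allele, and cells were collected by their red fluorescence. No group lacked these alleles, and neurons that did not switch on the reporter were not sampled. The labels do not say that the pools came from separate litters, so the p-values below measure only the spread between pools.

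Calcium-binding proteins of this kind carry EF-hands, helix-loop-helix units whose loop holds a calcium ion. Calbindin-D28k (Calb1), calretinin (Calb2) and parvalbumin (Pvalb) are known mainly as buffers that take up calcium after it enters a neuron, and in the adult thalamus calbindin and parvalbumin label different classes of cells, with parvalbumin in rodents best known from the GABAergic reticular nucleus. The neuronal calcium sensors Ncald, Vsnl1, Hpca, Hpcal1 and Hpcal4 carry a myristoyl group that brings them to membranes when calcium binds, and Necab1 and Necab2 form a small family with EF-hands near the amino end.

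The sensors are close relatives, and a stretch of each coding sequence is shown because the 5 genes behaved differently among the nuclei although they encode nearly the same calcium-binding loop. It is the first match of the translated coding sequence to the PROSITE EF-hand loop pattern, it covers coding bases 217 to 252 in each of the 5 genes, and capitals mark bases that differ from Hpca. Positions are in GRCm38 and the strand is that of the gene: Hpca at chr4:129118490-129118525 (minus), Hpcal1 at chr12:17786387-17786422 (plus), Ncald at chr15:37397183-37397218 (minus), Hpcal4 at chr4:123189079-123189114 (plus) and Vsnl1 at chr12:11332127-11332162 (minus).
Hpca: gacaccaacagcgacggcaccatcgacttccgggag
Hpcal1: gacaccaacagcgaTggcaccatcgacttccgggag
Ncald: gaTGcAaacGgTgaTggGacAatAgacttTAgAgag
Hpcal4: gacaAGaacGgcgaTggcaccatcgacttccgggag
Vsnl1: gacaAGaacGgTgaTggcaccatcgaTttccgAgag
Over these 36 bases Hpcal1 differed from Hpca at 1 base, Hpcal4 at 4, Vsnl1 at 7 and Ncald at 12. Over the whole coding sequences Hpca and Hpcal1 were 86.1% identical, Hpcal4 and Vsnl1 82.1%, Hpcal1 and Ncald 80.2%, and Hpca and Ncald 78.7%. Each of the 5 encoded 3 matches to the loop pattern, against 4 in Calb1, 5 in Calb2, 2 in Pvalb, 1 in Necab1 and 2 in Necab2. Calb1 and Calb2 were 62.3% identical and Necab1 and Necab2 52.7%. No stretch of 50 bases, the read length, was shared between any of the 10 genes, so that reads of this length taken without error could be assigned within the family. Stretches shared with other genes covered 6.96% of Necab1, 6.5% of Hpcal1, 4.89% of Ncald and 0.59% of Hpca, and 0 of the other members.

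Promoters of 6 of the 10 genes were found in the RefSeq table (GRCm38.p6), and those of Necab2, Hpcal1 and Vsnl1 are shown because Necab2 and Hpcal1 rose and fell together over the libraries while Vsnl1 did not follow them. They lie at chr8:119446469-119446768 (plus strand), chr12:17690559-17690858 (plus strand) and chr12:11436529-11436828 (minus strand), and capitals mark a match to one of the searched motifs.
Necab2: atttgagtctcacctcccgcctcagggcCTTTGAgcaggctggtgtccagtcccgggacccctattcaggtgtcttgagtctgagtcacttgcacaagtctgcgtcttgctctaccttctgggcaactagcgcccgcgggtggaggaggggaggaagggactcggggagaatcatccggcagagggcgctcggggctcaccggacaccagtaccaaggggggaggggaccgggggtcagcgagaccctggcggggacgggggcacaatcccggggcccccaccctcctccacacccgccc
Hpcal1: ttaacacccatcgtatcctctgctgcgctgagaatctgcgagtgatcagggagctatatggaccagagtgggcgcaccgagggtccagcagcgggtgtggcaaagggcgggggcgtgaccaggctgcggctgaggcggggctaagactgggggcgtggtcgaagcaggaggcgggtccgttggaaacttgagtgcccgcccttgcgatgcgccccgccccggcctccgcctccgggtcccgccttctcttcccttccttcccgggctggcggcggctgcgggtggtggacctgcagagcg
Vsnl1: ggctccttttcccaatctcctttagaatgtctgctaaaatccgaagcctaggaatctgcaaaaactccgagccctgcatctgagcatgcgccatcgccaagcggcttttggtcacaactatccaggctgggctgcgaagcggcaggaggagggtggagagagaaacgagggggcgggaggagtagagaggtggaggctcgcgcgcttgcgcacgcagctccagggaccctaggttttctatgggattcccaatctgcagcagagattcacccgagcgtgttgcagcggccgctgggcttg
4 short motifs, none overlapping another, were searched on both strands of all 32851 promoters of the same length. A homeodomain motif, TAATTA, was in 5.29% of them. The letters CTTTGA, known from TCF/LEF factors, were in 16%. A nuclear receptor motif, AGGTCA, was in 16.3%, and the cyclic AMP response element, TGACGTCA, was in 1.79%. The Necab2 window held CTTTGA, while no motif was in the Hpcal1 and Vsnl1 windows. AGGTCA was in the windows of Hpca and Hpcal4, and none of the 4 was in that of Pvalb. RefSeq gave 2 windows for Vsnl1, 2 for Pvalb and 3 for Hpca. Only the window nearest the gene start is described for these genes.

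Total counts were 15.9 to 23.6 M per library in dLG and VPM and 10.2 to 13.2 M in MGv, and 3 counts corresponded to 0.127 to 0.295 CPM. CPM are the counts of a gene as parts of 1 M counts of its library, here scaled by TMM (trimmed mean of M values), and a gene was called when the adjusted p of edgeR's quasi-likelihood test was under 0.1. Pan-neuronal marker genes summed to 8410 to 11100 CPM and relay neuron markers to 2090 to 3390 CPM in all 11 libraries. These sums hide differences, since all 6 relay markers were called in some contrast. Gbx2, Tcf7l2 and Foxp2 had their highest mean in MGv, and Lef1, Rora and Slc17a6 their lowest. Gbx2, which drove the Cre, averaged 304 CPM in MGv, 29.3 in dLG and 35.2 in VPM. The GABAergic marker list summed to 33.1 to 103 CPM, its defining gene Slc32a1 had 0 counts in every dLG and MGv library, and it was lower in VPM than in the other nuclei. Of the glial lists, the astrocyte markers spanned 56.9 to 191 CPM, mostly Fabp7 in dLG and VPM, while their member Slc1a3 averaged 72.4 CPM in MGv against 6.35 in dLG and 7.14 in VPM and so moved with the genes that were highest in MGv. The oligodendrocyte markers spanned 12.4 to 85.8 CPM, were highest in MGv and were made up mostly of Mbp. The part of these cells in the results below was not tested. Hspa8, a heat shock cognate gene singled out after its values were seen, was nearly absent from a library of each nucleus, at 3.05 CPM in dLG replicate 2, 4.09 in VPM replicate 3 and 5.55 in MGv replicate 1, with 159 to 580 CPM elsewhere. dLG replicate 2 was the highest dLG library for 8 of the 10 genes and the lowest for the other 2, whereas it was highest or lowest for 57.5% of the 15907 genes tested. Haemoglobin and Alas2 transcripts summed to 513 CPM in dLG replicate 3 and to at most 11.7 CPM in VPM and 0.351 CPM in MGv, and without dLG replicate 3 the only member call that changed was that of Hpca between dLG and VPM.

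All 10 genes passed the filter on low counts. Between dLG and VPM, Calb2, Necab1, Ncald and Hpca were higher in dLG, a direction called for 4.97% of all genes tested, and Necab2, Vsnl1 and Hpcal1 were higher in VPM, a direction called for 5.74%. Between dLG and MGv, Vsnl1 was higher in dLG (background 8.61%) and Calb1, Calb2, Necab2 and Hpcal1 were higher in MGv (background 7.49%). Between VPM and MGv, Vsnl1 was higher in VPM (background 10.4%) and Calb1, Calb2, Necab1 and Necab2 were higher in MGv (background 8.56%). The median log2 fold change of the 10 genes was -0.35, -0.68 and -0.63 in these contrasts, as first minus second nucleus, against 0, 0.02 and 0.02 over all genes tested. Calb2, Necab2 and Vsnl1 were called in all 3 contrasts, and Pvalb and Hpcal4 in none. The shares of all genes called in all 3 contrasts or in none were not computed. These contrasts share libraries, each nucleus standing in 2 of them. In bulk RNA of a sorted population, fewer cells with a transcript and less transcript per cell cannot be told apart.

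**Figure D1:**
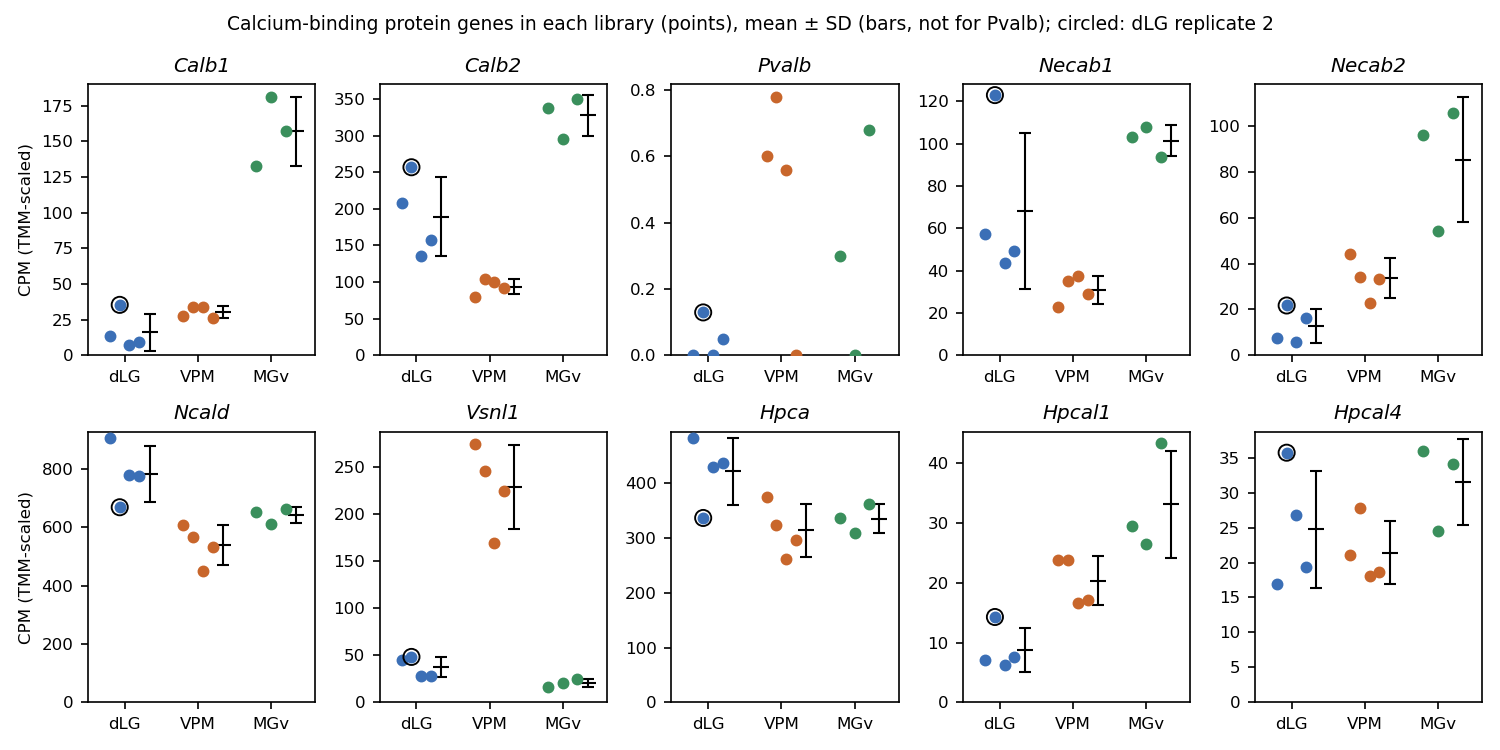
Level of each calcium-binding protein gene in every library, in TMM-scaled CPM on a linear axis from 0, by nucleus, with the mean ± SD as a bar beside the points (no bar for Pvalb) and dLG replicate 2 circled. Vsnl1 stands at 170 to 275 CPM in VPM and at or below 48.4 CPM elsewhere, Calb1 at 133 to 181 CPM in MGv, and the circled library is at the edge of the dLG points in every panel.

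The buffers were led by Calb2. Calb2 (ENSMUSG00000003657, chr8:110137502-110168210, minus strand) encodes calretinin and was measured at 208, 257, 135 and 158 CPM in the dLG libraries 1 to 4, at 79.9, 104, 99.4 and 91.6 CPM in VPM and at 338, 296 and 350 CPM in MGv. The nuclei did not overlap, with every MGv library above every dLG library and every dLG library above every VPM library. The level in dLG was 2.02-fold that in VPM (log2 fold change 1.02 ± 0.18 SE, adjusted p = 0.00315), in MGv it was 1.73-fold that in dLG (dLG minus MGv -0.79 ± 0.19, adjusted p = 0.0138), and in MGv it was 3.5-fold that in VPM (VPM minus MGv -1.81 ± 0.19, adjusted p = 3.75e-05).

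Calb1 (ENSMUSG00000028222, chr4:15881264-15908064, plus strand) encodes calbindin-D28k and was highest in MGv. Its levels were 13.3, 35.3, 7.13 and 8.91 CPM in dLG, 27.6, 34.1, 33.5 and 26.3 CPM in VPM and 133, 181 and 157 CPM in MGv. The MGv libraries were above all others, while dLG replicate 2 lay above all 4 VPM libraries and the other 3 dLG libraries lay below them. MGv exceeded dLG 9.68-fold (dLG minus MGv -3.27 ± 0.42, adjusted p = 0.00015) and VPM 5.17-fold (VPM minus MGv -2.37 ± 0.4, adjusted p = 0.00159). The difference between dLG and VPM was not called (dLG minus VPM -0.9 ± 0.38, adjusted p = 0.188). Without dLG replicate 2 it was -1.66 ± 0.21 with an adjusted p of 0.000343. With all 11 libraries kept, the Calb1 difference also passed under DESeq2 (adjusted p = 0.0914), with no filter on low counts (adjusted p = 2.59e-05), with the replicate block (adjusted p = 0.0721) and with a covariate for the 3 libraries with little Hspa8 (adjusted p = 0.059), so that both that library and the choice of fit decided the call. Leaving out dLG replicate 2 moved the Calb1 difference between dLG and MGv to -4.01 ± 0.24 (adjusted p = 8.4e-07).

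Calretinin mRNA exceeded calbindin mRNA per length in each nucleus. Divided by exon length, mean Calb2 was 109 CPM per kb in dLG, 53.7 in VPM and 188 in MGv, and mean Calb1 was 3.33, 6.27 and 32.4 CPM per kb.

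Pvalb (ENSMUSG00000005716, chr15:78191114-78206400, minus strand), which encodes parvalbumin, had few counts. There were 0, 3, 0 and 1 counts in the dLG libraries, 13, 18, 9 and 0 in VPM and 4, 0 and 7 in MGv, so that its highest level was 0.778 CPM and no dLG library exceeded the floor of 3 counts. In each nucleus at least 1 library had no count. No contrast was called, with an adjusted p of 0.148 for dLG against VPM, 0.273 for dLG against MGv and 0.785 for VPM against MGv, and no fold is given at these counts. Pvalb passed the filter only through libraries of VPM and MGv. Without VPM replicate 4, which had 0 counts, the adjusted p for dLG against VPM was 0.0648, and with no filter on low counts it was 0.0728. Under 15 of the 17 alternatives that gave a Pvalb value, this contrast stayed uncalled.

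The NECAB genes moved in different directions between dLG and VPM. Necab1 (ENSMUSG00000040536, chr4:14952245-15149794, minus strand) was at 57.5, 123, 43.6 and 49.1 CPM in dLG, 22.7, 35, 37.5 and 28.9 CPM in VPM and 103, 108 and 93.5 CPM in MGv. Every VPM library was below every other library, and dLG replicate 2 alone among the dLG libraries was above the MGv libraries. The level in dLG was 2.2-fold that in VPM (1.14 ± 0.28, adjusted p = 0.0239) and that in MGv was 3.28-fold that in VPM (VPM minus MGv -1.71 ± 0.3, adjusted p = 0.00201). The difference between dLG and MGv was not called (-0.57 ± 0.3, adjusted p = 0.262), but it was -1.02 ± 0.19 without dLG replicate 2 (adjusted p = 0.0033). With every library kept, it also passed with no filter on low counts (-0.54, adjusted p = 0.0485). It passed as well with a covariate for the libraries with little Hspa8 (-0.64, adjusted p = 0.0783). For dLG against VPM, leaving out dLG replicate 2 lowered the value to 0.67 ± 0.18 and kept the call (adjusted p = 0.0362). Exons of Necab1 overlap Gm11837 on the other strand over 7.83% of their length, and whether counting used strand was not stated.

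Necab2 (ENSMUSG00000031837, chr8:119446719-119472640, plus strand) encodes a protein that binds an adenosine receptor and a metabotropic glutamate receptor. It was at 7.48, 21.7, 5.71 and 16.3 CPM in dLG, 44.3, 34.2, 23 and 33.1 CPM in VPM and 96, 54.3 and 106 CPM in MGv. The 3 nuclei did not overlap, and their order, from dLG over VPM to MGv, was not that of Necab1. VPM exceeded dLG 2.62-fold (dLG minus VPM -1.39 ± 0.36, adjusted p = 0.0328), MGv exceeded dLG 6.64-fold (dLG minus MGv -2.73 ± 0.39, adjusted p = 0.000429) and MGv exceeded VPM 2.54-fold (VPM minus MGv -1.34 ± 0.38, adjusted p = 0.0328). The Necab2 log2 fold change between VPM and MGv was -1.24 without MGv replicate 1 (adjusted p = 0.102) and -1.15 without MGv replicate 3 (adjusted p = 0.136), neither of which passed.

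Per length the pair changed rank among the nuclei. Mean Necab1 was 13 CPM per kb in dLG, 5.92 in VPM and 19.4 in MGv, and mean Necab2 was 6.1, 16.1 and 40.7 CPM per kb. Necab1 was the higher of the pair in dLG by these means, although the ranges of the pair over the libraries overlapped. Necab2 was the higher in VPM and MGv, where these ranges did not overlap. The pair was not compared per length within each library.

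Among the neuronal calcium sensors, Vsnl1 (ENSMUSG00000054459, chr12:11325242-11436613, minus strand) differed most between nuclei. It encodes visinin-like protein 1 and was at 45.4, 48.4, 28.4 and 28.2 CPM in dLG, 275, 246, 170 and 225 CPM in VPM and 16.4, 20.2 and 24.7 CPM in MGv. The nuclei did not overlap, and the lowest VPM library stood far above the highest dLG library. VPM exceeded dLG 6.09-fold (dLG minus VPM -2.61 ± 0.22, adjusted p = 7.73e-06) and MGv 11.2-fold (3.49 ± 0.26, adjusted p = 2.16e-06). The level in dLG was 1.85-fold that in MGv (0.88 ± 0.24, adjusted p = 0.0246), a difference that was 0.75 without MGv replicate 1 (adjusted p = 0.113). The opposite pattern was seen for Calb2 and Necab1, for which VPM was the lowest nucleus.

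Hpcal1 (ENSMUSG00000071379, chr12:17690856-17791933, plus strand), also called visinin-like protein 3, was lowest in dLG. It was at 7.12, 14.3, 6.26 and 7.58 CPM in dLG, 23.9, 23.9, 16.7 and 17.1 CPM in VPM and 29.6, 26.6 and 43.4 CPM in MGv, with no overlap of the nuclei. VPM exceeded dLG 2.31-fold (dLG minus VPM -1.21 ± 0.27, adjusted p = 0.0127) and MGv exceeded dLG 3.76-fold (dLG minus MGv -1.91 ± 0.29, adjusted p = 0.00056). VPM and MGv, although their libraries were apart, were not called different (VPM minus MGv -0.7 ± 0.28, adjusted p = 0.12), and without dLG replicate 2, which is in neither group but enters the estimate of the spread, the adjusted p was 0.0489. The Hpcal1 difference between VPM and MGv also passed under DESeq2 (adjusted p = 0.0806), with no filter (adjusted p = 0.0589), with the compared nuclei alone (adjusted p = 0.0754) and without the 3 libraries with little Hspa8 (adjusted p = 0.0769).

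Ncald (ENSMUSG00000051359, chr15:37366175-37792570, minus strand), neurocalcin delta, was the most counted of the 10 genes. Its levels were 905, 669, 780 and 777 CPM in dLG, 609, 567, 449 and 533 CPM in VPM and 654, 611 and 664 CPM in MGv. The dLG libraries were above all others by small margins, and the MGv libraries were above those of VPM. The level in dLG was 1.45-fold that in VPM (0.54 ± 0.13, adjusted p = 0.0189). The contrasts with MGv were not called, at 0.28 ± 0.14 for dLG minus MGv (adjusted p = 0.228) and -0.25 ± 0.14 for VPM minus MGv (adjusted p = 0.25). The difference of dLG from MGv passed without VPM replicate 3 (0.29, adjusted p = 0.0962). Over 7.38% of its exonic bases Ncald overlaps Gm28221 on the other strand and Gm49397 on the same strand.

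Hpca (ENSMUSG00000028785, chr4:129111570-129122036, minus strand) encodes hippocalcin, known from hippocampal pyramidal cells, and had small differences among the nuclei. It was at 482, 336, 428 and 437 CPM in dLG, 375, 323, 261 and 295 CPM in VPM and 336, 308 and 361 CPM in MGv. The ranges of dLG and VPM overlapped through dLG replicate 2 and VPM replicate 1. The level in dLG was 1.34-fold that in VPM and only just passed the test (0.42 ± 0.14, adjusted p = 0.0947). The differences from MGv were 0.33 ± 0.15 for dLG (adjusted p = 0.213) and -0.1 ± 0.15 for VPM (adjusted p = 0.732). Without dLG replicate 2 the first of these was 0.42 ± 0.15 (adjusted p = 0.0813). The Hpca call between dLG and VPM was lost on leaving out any of 9 libraries, with an adjusted p of 0.266, 0.174 and 0.209 without dLG replicates 1, 3 and 4, of 0.177, 0.115 and 0.183 without VPM replicates 2, 3 and 4, and of 0.129, 0.124 and 0.111 without MGv replicates 1, 2 and 3.

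Hpcal4 (ENSMUSG00000046093, chr4:123183227-123194701, plus strand), also called visinin-like protein 2, was not called in any contrast. Its levels were 17, 35.7, 26.8 and 19.4 CPM in dLG, 21.1, 27.8, 18.1 and 18.7 CPM in VPM and 35.9, 24.5 and 34.1 CPM in MGv, with overlap between all pairs of nuclei. The differences were 0.21 ± 0.24 for dLG minus VPM (adjusted p = 0.702), -0.35 ± 0.25 for dLG minus MGv (adjusted p = 0.454) and -0.55 ± 0.25 for VPM minus MGv (adjusted p = 0.176).

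**Figure D2:**
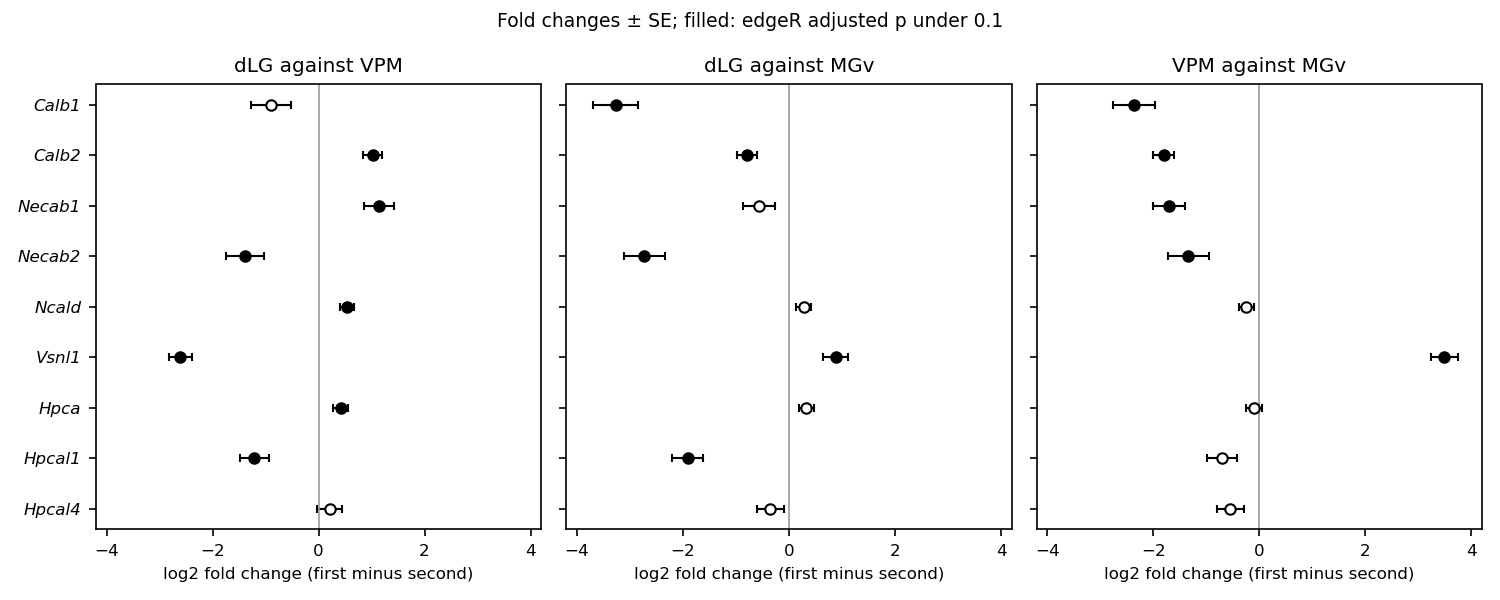
Log2 fold change ± SE of the calcium-binding protein genes for the 3 contrasts of nuclei, first minus second, with filled points where edgeR's adjusted p was under 0.1. Vsnl1 lies at -2.61 and 3.49 in the contrasts with VPM, and Calb1 at -3.27 and -2.37 in those with MGv.

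Compared per length, a different gene led in each nucleus by its mean. In dLG this was Hpca, at 144 ± 21 CPM per kb (SD, n = 4), followed by Calb2 at 109 ± 31.2 and Ncald at 91.2 ± 11.2, and the libraries of Hpca (115 to 165) and Calb2 (77.2 to 147) overlapped. In VPM it was Vsnl1, at 117 ± 22.5 CPM per kb (SD, n = 4), and its libraries (87.1 to 140) overlapped those of Hpca (89.3 to 128), the next gene at 107 ± 16.5. In MGv it was Calb2, at 188 ± 16.3 CPM per kb (SD, n = 3), and here its lowest library (170) was above the highest of Hpca (124). Vsnl1 thus stood at 19.2 CPM per kb in dLG and 10.4 in MGv against 117 in VPM. The ranges given are over the libraries of a nucleus, and genes were not compared per length within each library. At the lower end, Hpcal4 was between 4.01 and 5.89 CPM per kb in the nuclear means. Summed over the 10 genes, the level was 1460 to 1740 CPM in dLG, 1110 to 1480 CPM in VPM and 1630 to 1830 CPM in MGv, so that the dLG range overlapped both others while those of VPM and MGv were apart.

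The 9 genes other than Pvalb fell into a few patterns over the 11 libraries, described by Pearson's r of log2 CPM. The libraries are in 3 nuclei, which the points share, so no p is given. Necab2 and Hpcal1 followed each other at r = 0.96, and Calb1 followed them at 0.89 and 0.9. Calb2 and Necab1 were also at 0.96, and Ncald and Hpca at 0.95. Vsnl1 ran opposite to Calb2 at -0.87. Of the relatives in sequence, Hpca and Ncald were thus each other's nearest member, while r was 0.59 for Calb1 and Calb2, 0.29 for Necab1 and Necab2, -0.6 for Hpca and Hpcal1, and -0.45 for Hpcal4 and Vsnl1. Within dLG, replicate 2 was highest for Calb1, Calb2, Necab1, Necab2 and Hpcal1 and lowest for Ncald and Hpca. Among pairs of members, single libraries were left out only for Calb2 and Necab1, with r from 0.95 to 0.98. How far replicate 2 shaped the other values was not tested.

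**Figure D3:**
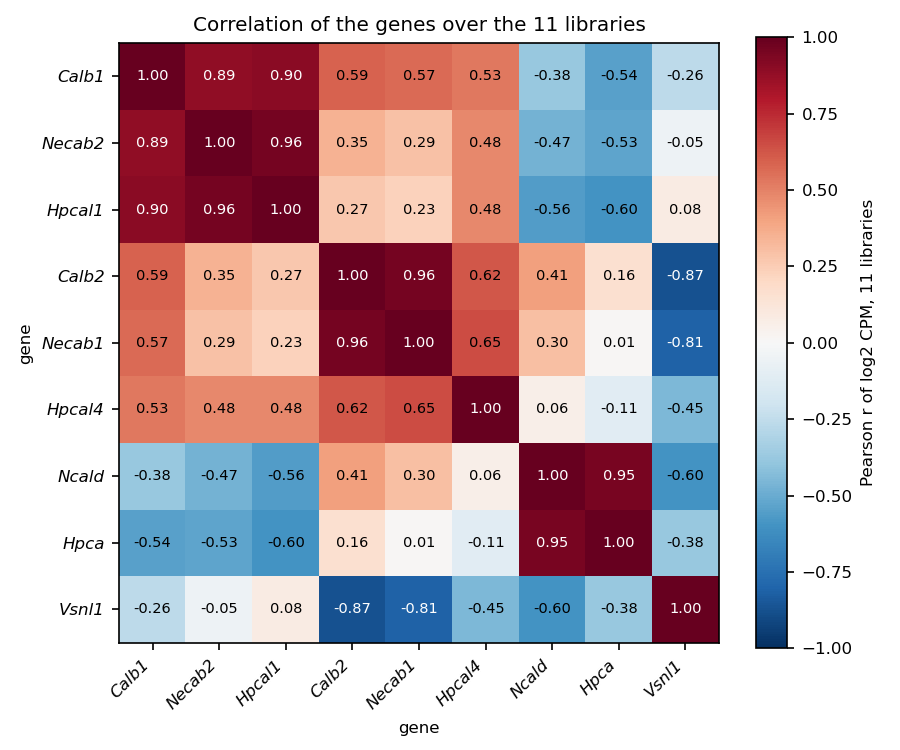
Pearson correlation of log2 CPM over the 11 libraries for the calcium-binding protein genes other than Pvalb, from -1 in blue to 1 in red. Calb1, Necab2 and Hpcal1 form a block with r from 0.89 to 0.96, and Calb2 and Necab1 have negative values with Vsnl1.

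Over the genes with a mean of at least 10 CPM, the gene whose pattern was most like that of each member was Sphkap for Calb1 (r = 0.98), Lrrc56 for Calb2 (0.98), Calb2 itself for Necab1 (0.96), Fam234b for Necab2 (0.99), Slc24a2 for Ncald (0.96), Lmo4 for Vsnl1 (0.98), Clstn2 for Hpca (0.96), Ablim3 for Hpcal1 (0.98) and Eea1 for Hpcal4 (0.97), again over 11 libraries and out of 8874 genes compared. The value for Pvalb, 0.84 with Tmem185a, rests on the few counts given above.

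The other genes of calcium handling were taken from lists set by function. In either direction, dLG against VPM had calls for 10.7% of all genes tested, dLG against MGv for 16.1% and VPM against MGv for 19%, and the counts of each list stand against these shares. Among the other neuronal calcium sensors, 11 of 14 were tested, of which 3 were higher in dLG than in VPM and none lower, 1 was higher in dLG than in MGv, and 1 was higher and 3 were lower in VPM than in MGv, in all 27.3%, 9.09% and 36.4% of those tested. Without VPM replicate 2, or without any single MGv library, the calls between VPM and MGv in this list fell from 4 to 2. Kcnip3 and Kcnip1 encode subunits of A-type potassium channels. Kcnip3 averaged 23.5 CPM in dLG, 2.61 in VPM and 17.2 in MGv (dLG minus VPM 3.18 ± 0.21, adjusted p = 9.22e-07, and VPM minus MGv -2.73 ± 0.22, adjusted p = 3.39e-06). Kcnip1 averaged 95.9, 17.3 and 29.3 CPM (dLG minus VPM 2.48 ± 0.37, adjusted p = 0.000997, and dLG minus MGv 1.71 ± 0.41, adjusted p = 0.0128). Caln1, a calmodulin-like protein, averaged 40.4 CPM in VPM and 108 in MGv (-1.41 ± 0.26, adjusted p = 0.00313). Of the remaining EF-hand proteins, 1 of 10 tested (10%) was called in each contrast, near the share over all genes for dLG against VPM. Between VPM and MGv, DESeq2 called 4 of them, as did edgeR with no filter on low counts. For dLG against MGv the number was 3 with no filter and 0 with at least 10 counts in every library. In the main fit the number between VPM and MGv was 4 without MGv replicate 2. It was 2 there without dLG replicate 2, dLG replicate 4 or VPM replicate 4. For the other contrasts it was 2 without dLG replicate 2 (against VPM) and without MGv replicate 2 (against MGv). S100a10, whose protein binds annexin A2, averaged 65.9 CPM in dLG, 228 in VPM and 60.5 in MGv.

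Of 4 calmodulin-binding proteins of the IQ type, 2, 2 and 3 were called in dLG against VPM and in the contrasts of each with MGv. Over all genes tested the shares called were 10.7%, 16.1% and 19%. Pcp4, which speeds the exchange of calcium on calmodulin, averaged 542 CPM in dLG, 2810 in VPM and 461 in MGv (dLG minus VPM -2.37 ± 0.18, adjusted p = 2.73e-06, and VPM minus MGv 2.61 ± 0.2, adjusted p = 2.85e-06), and had, like Vsnl1, its highest level in VPM. Its relative Pcp4l1 was highest in dLG, at 111 CPM against 53.8 in VPM and 30.1 in MGv. Of 17 calmodulin targets, 1 was higher in dLG (background 4.97%) and 3 in VPM (5.74%), 1 was higher in dLG (8.61%) and 7 in MGv (7.49%), and 2 were higher in VPM (10.4%) and 5 in MGv (8.56%). Their median log2 fold changes were -0.24, -0.39 and 0.03, and without dLG replicate 3 the calls between dLG and MGv fell from 8 to 5. Camk2a, a kinase of synapses, averaged 26.1 CPM in dLG and 11.6 in VPM (1.16 ± 0.21, adjusted p = 0.00419). Camk1d, a calmodulin-dependent kinase, averaged 14.8 CPM in dLG against 66 in VPM and 66.4 in MGv, the kinase gene Camk4 643 CPM in VPM against 172 in MGv, and the calcium-stimulated adenylyl cyclase gene Adcy8 26.3 CPM in MGv against 9.73 in dLG and 5.96 in VPM.

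Among 21 genes of calcium pumps, exchangers and release channels, 1 was called for dLG against VPM, 4 were called where dLG was set against MGv and 7 where VPM was. These are 4.76%, 19% and 33.3% of the list, against 10.7%, 16.1% and 19% of all genes tested. The single call between dLG and VPM was the sodium, calcium and potassium exchanger Slc24a2, at 13.9 and 6.62 CPM (1.07 ± 0.2, adjusted p = 0.00492). Leaving out single libraries took that number to 5 without VPM replicate 3 and to 2 without dLG replicate 1, MGv replicate 2 or MGv replicate 3, and lowered the number between VPM and MGv to 3 without MGv replicate 1 and 4 without MGv replicate 2. Between dLG and MGv it was 2 without MGv replicate 1. Over all genes tested, leaving out 1 library gave 1093 to 2223 calls for dLG against VPM. It gave 1886 to 3300 for dLG against MGv and 2024 to 3235 for VPM against MGv. The changed list counts, here and above, were not set against the share called in the same fit. The mitochondrial calcium uniporter gene Mcu averaged 46.2 CPM in dLG and 29.6 in MGv (0.64 ± 0.16, adjusted p = 0.0166), the gene of the reticulum calcium sensor Stim1 6.95 CPM in VPM and 12.4 in MGv (VPM minus MGv -0.84 ± 0.22, adjusted p = 0.021), and the plasma membrane pump gene Atp2b1 956 CPM in VPM and 558 in MGv (0.78 ± 0.23, adjusted p = 0.0407). Of the 11 calcium-binding proteins of the endoplasmic reticulum, 0 were called in any contrast by edgeR and 0 by DESeq2, with 1 at an unadjusted p under 0.05 in each. A single gene of this list was called without VPM replicate 3 and without dLG replicate 1 or 2, in 1 contrast each. Their median log2 fold changes were -0.06, 0.05 and 0.12.

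**Figure D4:**
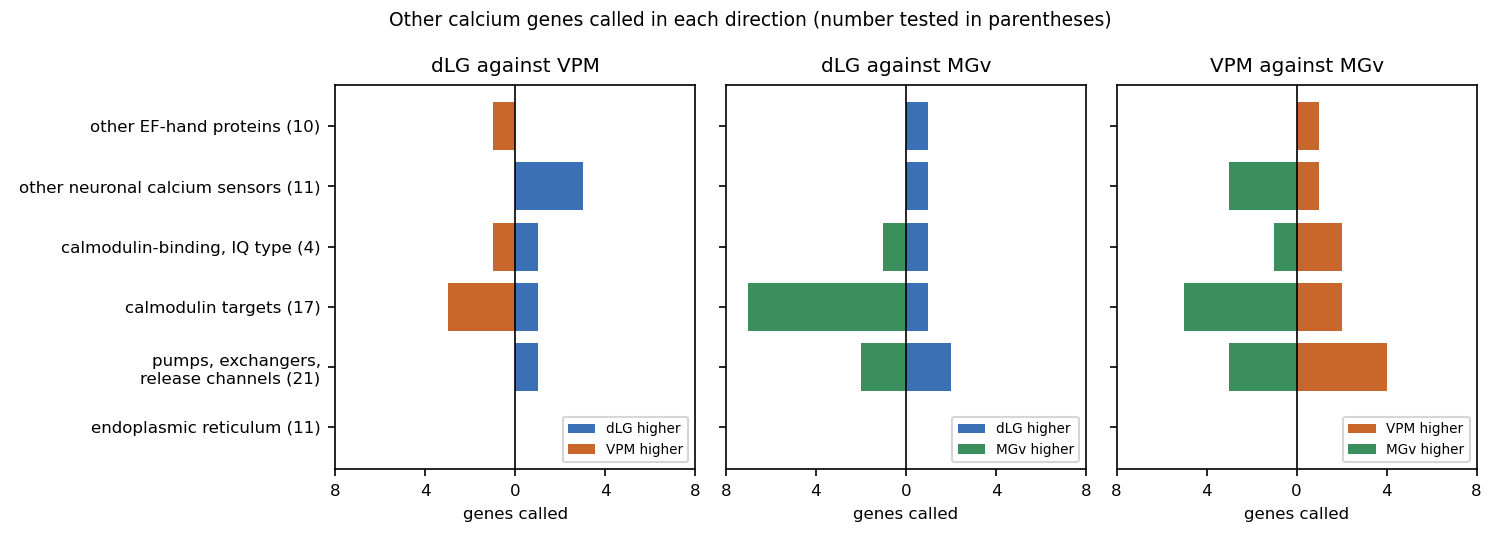
Number of genes called in each direction in the 3 contrasts for each list of other calcium genes, with the number tested in parentheses, and bars to the right where the first nucleus was higher. The calmodulin targets have 7 genes higher in MGv than in dLG, and the list of the endoplasmic reticulum has no bar.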

How the data were processed

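Tissue was dissected from 300 micrometre slices, cells were sorted by fluorescence, and RNA-seq libraries were read as single reads of 50 bases. Each deposited table held unnormalized read counts. Per the submitters' processing notes and the study's methods, the authors trimmed reads (Trim Galore 0.6.1, cutadapt 2.3), aligned them to GRCm38 with STAR 2.7.0d and counted Ensembl genes with featureCounts (Subread 1.6.4). The use of strand and the treatment of reads with several alignments are not given in the sources used here.

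Groups and replicate numbers came from the sample titles. Counts of all 11 libraries were tested by the quasi-likelihood method of edgeR (version 4.0.16 under R 4.3.3) after filterByExpr and TMM scaling, with 3 group means and no covariate. This kept 15907 of 33170 genes with a count. P-values were two-sided and adjusted by Benjamini-Hochberg over all genes tested, with a threshold of 0.1. The size of a log2 fold change over the root of its F statistic was its SE, and log2 CPM used a prior count of 2. Floors of 3 counts cover counting error only, since PCR reads are not independent molecules. No library of a nucleus repeated another, since counts in 15 pairs differed by 12.8 to 115 times sampling noise (chi-square per degree of freedom). Positions, lengths and coding sequences came from GENCODE M21, which is later than the release used for counting, and promoters from RefSeq.

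The 10 genes and the lists were chosen with earlier results of these data known. Text names all 10, the gene most like each in pattern (Pearson's r), and up to 2 called genes per list and contrast with the largest fold change and at least 10 CPM in a nucleus compared. Alternatives were DESeq2 1.42.0, its size factors, total counts, no filter, at least 10 counts in every library, a replicate block, the compared nuclei alone, an adjusted p under 0.05, a covariate for or removal of the 3 libraries with little Hspa8, thinned counts and leaving out each library. Simulated counts were used to test the models.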

Additional observations from a re-analysis of the deposited data

Results flagged for a closer look

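Parvalbumin mRNA in VPM replicate 4 stood apart from the other libraries of its nucleus. Pvalb was at 0 CPM there, where 3 counts correspond to 0.147 CPM, and at 0.558 to 0.778 CPM in the other 3 VPM libraries, from 9 to 18 counts each. The gap was 0.863 of the range of the 4 libraries, above Dixon's 95% critical value for 4 values. The 10 genes gave 20 sets of 4 libraries, and chance passes this value in about 1 set in 20.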

How the results depend on the processing

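Of 646 fold changes of the 10 genes under alternative settings, 607 kept their side of the threshold, 21 newly passed and 18 no longer passed. Of the called differences 0 reversed. The uncalled Hpcal4 difference between dLG and VPM, 0.21 in the main fit, changed sign under some settings, as with -0.04 without dLG replicate 2. Hpca between dLG and VPM failed under 15 of 22 alternatives, Necab2 between VPM and MGv under 2 and Vsnl1 between dLG and MGv under 1. Calb1 between dLG and VPM, not called in the contrasts above, passed under 6, of which 4 kept all libraries, and Hpcal1 between VPM and MGv passed under 5. Without the 3 libraries with little Hspa8, 2618 genes were called between dLG and VPM against 1704. Of the 10 genes, 8 were called there between dLG and MGv against 5, with Necab1 (-1.02, adjusted p = 0.00455), Ncald (0.35, adjusted p = 0.0713) and Hpca (0.41, adjusted p = 0.0626) added. Calb1 between dLG and VPM (-1.59, adjusted p = 0.000697) and Hpcal1 between VPM and MGv (-0.71, adjusted p = 0.0769) were also gained there. Over all genes tested, 2562 were called between dLG and MGv in the main fit and 1832 to 3300 over the 22 alternatives. The number without these 3 libraries is not given, so the added members are not set against their background. These libraries were singled out after their Hspa8 values were seen, and dLG replicate 2 is among them. Leaving out single libraries gave 1093 to 2223 genes called between dLG and VPM, with 1101 without VPM replicate 1 and 1093 without VPM replicate 2. The cause was not tested. With total counts in place of TMM, 61.1% of the calls between dLG and VPM were higher in dLG against 46.4%. Pvalb gave a value under 17 of the 22 alternatives in each contrast with dLG. For VPM against MGv it gave a value under 18. The filter of at least 10 counts in every library was among the settings without a value. Pvalb alone of the 10 genes was near the floor of 3 counts, and every other member had at least 105 counts in every library. With counts thinned to the smallest total, Hpca between dLG and VPM no longer passed (0.4 ± 0.14, adjusted p = 0.1).

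With the replicate block, 1464, 2169 and 2695 genes and 7, 5 and 5 of the 10 genes were called in the 3 contrasts. Calb1 was gained between dLG and VPM (-1.12, adjusted p = 0.0721) and Hpca lost (0.42, adjusted p = 0.111). The 10 same-numbered pairs of libraries had a mean correlation of deviations of 0.016, between -0.2 and 0.48, and 4 of 11 libraries correlated best with their own number, so the numbers were not treated as pairing the samples.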
